A study of Mus musculus with 6 samples.

Results

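The 43 genes described here encode plasma proteins of blood clotting, fibrinolysis and complement, together with a few of their cell-surface or locally made partners. They were taken by gene symbol from the gene tables of a mouse study of dietary sterols, in which they are 43 of 33639 gene rows. Of them, 20 belong to clotting, 4 to fibrinolysis and 19 to complement, and these were divided by role into 12 groups. The choice of genes used no measured value, but it was made with earlier results of these data known.

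All 6 libraries came from mice with a global knockout of Abcg8, which encodes one subunit of the ABCG5/ABCG8 transporter that returns plant sterols to the gut lumen and the bile. The labels call the animals male and give no strain or age. Until weaning the mice had a low-sterol diet with 0.005% ezetimibe, a blocker of intestinal sterol uptake, and after weaning they ate 1 of 4 diets for 12 weeks. The diets were low sitosterol, high sitosterol, ergosterol (a fungal sterol) and stigmasterol (a plant sterol), and the sterol contents are not given in the sources used here. There was 1 liver library for each of the 4 diets and 1 adrenal library for each sitosterol diet, each from 1 mouse. Every group carried the knockout and the ezetimibe start, so no comparison is with a wild-type animal. With 1 library a group there is no replicate check, no p-value is given, and a difference between diets cannot be told apart from a difference between individual mice.

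Clotting runs from tissue factor, or from contact with a charged surface, through a chain of serine proteases to thrombin, which cuts fibrinogen into fibrin. Plasmin dissolves fibrin again once tissue-type or urokinase-type activator has cut plasminogen. Complement starts from antibody (C1q, C1s), from sugars (mannose-binding lectins and their proteases) or spontaneously, meets at C3, and ends in a pore made of its terminal components. Hepatocytes make most of the proteins of all 3 systems, whereas C1q comes chiefly from macrophages, clotting factor VIII from endothelium, and tissue factor and the plasminogen activators from non-parenchymal cells.

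The libraries held between 41546507 and 50573364 estimated counts. Levels of one gene across libraries are given as scaled CPM, CPM values (counts relative to library size) after TMM scaling within a tissue, and levels across genes as TPM, which allows for transcript length. The stigmasterol liver stood apart, with a TMM factor of 1.35 where the other livers had factors between 0.83 and 0.95. A gene was called higher or lower when its level differed 2-fold or more and the 95% interval of the ratio excluded equality. That interval covers counting error only. The Y-linked genes Eif2s3y and Ddx3y lay between 24.6 and 39.2 scaled CPM in the 4 livers but at 0.07 or below in both adrenals, so the adrenal libraries did not bear out their male label. Abcg8 was counted at between 1.25 (low sitosterol) and 11.6 (stigmasterol) scaled CPM in the livers, and a total over the gene does not check a deletion of part of it.

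In the liver most members were abundant. All 43 passed the filter of 1 CPM in at least 1 liver, and 25 reached 100 TPM in every liver. The 6 that reached 1000 TPM in every liver were the 3 fibrinogen chains, the kininogen Kng1, antithrombin (Serpinc1) and C3. The 3 members below 10 TPM in every liver were tissue factor (F3), factor VIII (F8) and urokinase (Plau). The 43 genes together held 2.03% of liver TPM on low sitosterol, 2.32% on high sitosterol, 2.35% on ergosterol and 2.11% on stigmasterol.

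Promoter windows are shown for 6 members because they carry the liver differences described next: the 3 fibrinogen genes, which lie side by side on chromosome 3, and C6, C8b and F11, which were called lower on ergosterol. Each window runs from 250 bases before to 50 bases after the RefSeq transcript start, 5′ to 3′ along the gene, in build GRCm38.p6. Capitals mark every match, on either strand, to CTGGGAA (the core of the interleukin-6 response element), TTGCNNAA (a C/EBP core), TTCNNNGAA (a STAT core) or the HNF1 site motif.
Fgg promoter window, chr3:83007474-83007773, plus strand: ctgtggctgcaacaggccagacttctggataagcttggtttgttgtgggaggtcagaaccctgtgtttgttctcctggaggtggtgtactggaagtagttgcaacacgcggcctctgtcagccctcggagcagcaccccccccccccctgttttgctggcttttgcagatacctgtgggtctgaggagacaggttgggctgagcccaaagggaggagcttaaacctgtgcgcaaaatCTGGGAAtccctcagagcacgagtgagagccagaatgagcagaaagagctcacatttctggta
Fga promoter window, chr3:83025903-83026202, plus strand: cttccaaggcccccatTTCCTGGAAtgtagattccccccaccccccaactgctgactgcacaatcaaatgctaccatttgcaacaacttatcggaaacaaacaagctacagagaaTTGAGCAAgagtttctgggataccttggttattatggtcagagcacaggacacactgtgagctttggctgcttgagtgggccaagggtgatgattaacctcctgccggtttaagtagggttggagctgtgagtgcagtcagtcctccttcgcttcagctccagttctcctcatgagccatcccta
Fgb promoter window, chr3:83049814-83050113, minus strand: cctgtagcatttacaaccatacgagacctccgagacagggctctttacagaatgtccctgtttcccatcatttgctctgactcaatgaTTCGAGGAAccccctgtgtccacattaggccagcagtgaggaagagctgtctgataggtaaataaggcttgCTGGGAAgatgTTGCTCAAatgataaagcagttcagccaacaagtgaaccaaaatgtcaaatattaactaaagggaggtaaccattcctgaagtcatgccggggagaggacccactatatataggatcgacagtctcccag
C6 promoter window, chr15:4726960-4727259, plus strand: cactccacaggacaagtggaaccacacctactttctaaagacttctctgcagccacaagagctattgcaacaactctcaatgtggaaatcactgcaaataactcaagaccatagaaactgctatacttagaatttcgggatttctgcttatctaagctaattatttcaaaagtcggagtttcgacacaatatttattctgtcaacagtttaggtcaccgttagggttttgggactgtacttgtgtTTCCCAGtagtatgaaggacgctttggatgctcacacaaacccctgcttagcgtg
C8b promoter window, chr4:104766067-104766366, plus strand: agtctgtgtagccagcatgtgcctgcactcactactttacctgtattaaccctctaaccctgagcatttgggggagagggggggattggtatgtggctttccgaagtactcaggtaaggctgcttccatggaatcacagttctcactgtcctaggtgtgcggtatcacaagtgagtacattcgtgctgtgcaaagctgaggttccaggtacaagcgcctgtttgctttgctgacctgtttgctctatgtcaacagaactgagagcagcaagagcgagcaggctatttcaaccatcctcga
F11 promoter window, chr8:45261982-45262281, minus strand: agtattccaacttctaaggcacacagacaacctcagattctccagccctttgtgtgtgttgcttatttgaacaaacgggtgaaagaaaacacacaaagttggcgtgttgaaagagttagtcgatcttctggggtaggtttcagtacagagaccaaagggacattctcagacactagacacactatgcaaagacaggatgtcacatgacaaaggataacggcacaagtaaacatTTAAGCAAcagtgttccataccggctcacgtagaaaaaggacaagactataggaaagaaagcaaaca

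Fgb held 3 of these matches, Fga 2 and Fgg, C6 and F11 1 each, and the C8b window held none. Of the 33 windows found for 31 members, CTGGGAA was in 6 (18.2%), against 11.1% of all 32851 promoter windows of that length. TTGCNNAA was in 10 (30.3%), against 10.8%. TTCNNNGAA was in 6 (18.2%), against 8.30%, and the HNF1 motif was in 1 (3.03%), against 0.399%. A match describes letters and is not evidence of binding.

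The 3 other livers differed from the low sitosterol liver in different members. On high sitosterol the 3 C1q chains, the start of the classical complement pathway, were between 2.84-fold and 3.17-fold higher, and most members lay near their low sitosterol level. On ergosterol C6, C8b and F11 were lower and the lectin-pathway protease Masp1 was higher. On stigmasterol, with TMM scaling, many hepatocyte products of clotting and complement were lower, whereas C1q, tissue factor and both plasminogen activators were higher. Of the lower members C8b alone kept its stigmasterol call under every scaling tried.

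**Figure D1:**
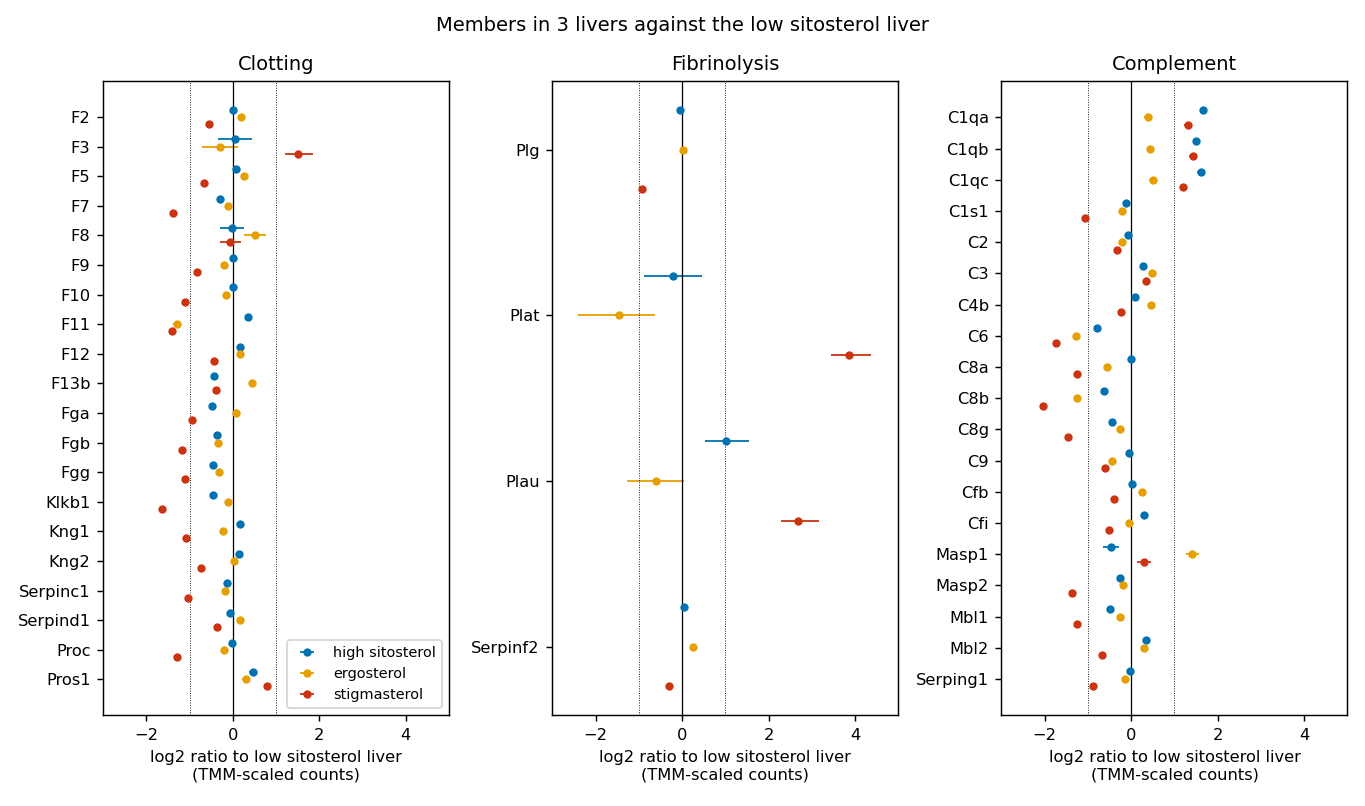
Log2 ratio (x axis) of each of the 43 members (y axis, in panels for clotting, fibrinolysis and complement) in the high sitosterol, ergosterol and stigmasterol livers against the low sitosterol liver, as points with bars for the 95% counting interval and dotted lines at 2-fold. The ratios for stigmasterol reach from -2.03 for C8b to 3.87 for Plat.

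In numbers, 4 members were higher and 0 lower on high sitosterol, where 8.66% of the 13378 liver genes were called higher and 4.30% lower. On ergosterol 1 was higher and 4 were lower, where 6.03% of genes were called higher and 5.82% lower. On stigmasterol 6 were higher and 16 lower, where 21.6% of genes were called higher and 7.80% lower. By system, clotting had 0 higher and 0 lower on high sitosterol, 0 and 1 on ergosterol, and 1 and 9 on stigmasterol. Fibrinolysis had 1 and 0, 0 and 1, and 2 and 0 of its 4 genes, and complement 3 and 0, 1 and 2, and 3 and 7. On high sitosterol the median log2 ratios of clotting, fibrinolysis and complement were -0.0046, -0.0076 and -0.028, beside -0.049 for all genes. With library totals they were 0.19, 0.19 and 0.17, beside 0.15. On log2(TPM + 0.1) they were 0.25, 0.25 and 0.24, beside 0.21. The median log2 ratio of the 20 clotting genes was -0.11 on ergosterol and -0.88 on stigmasterol, and that of the 19 complement genes -0.14 and -0.61, beside 0.02 and 0.08 for all genes. The 4 fibrinolysis genes had medians of -0.29 and 1.19. The clotting and complement medians did not hold their size or sign under other scalings: on stigmasterol the clotting median was -0.19 with library totals, 0.03 on log2(TPM + 0.1) and -0.08 with hepatocyte marker scaling, and the complement median 0.09, 0.06 and 0.20. On ergosterol the clotting, fibrinolysis and complement medians were 0.27, 0.13 and 0.13 on log2(TPM + 0.1). Hepatocyte marker genes moved alongside: 0 of 14 were higher and 6 lower on stigmasterol, with a median of -0.86, and on ergosterol their median was -0.20. These marker values use TMM scaling, and with library totals the stigmasterol log2 ratios lie 0.69 higher, so most of the marker drop depends on scale. The listed hepatocyte markers together held 12.4% of liver TPM on low sitosterol and 11.1% on stigmasterol. In whole liver, fewer hepatocytes and less RNA per hepatocyte cannot be told apart, either from each other or from an effect of scaling.

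The scale decided most of the stigmasterol calls. With library totals in place of TMM, which moved the median of all genes by 0.69, 2 members were lower, C6 and C8b. On the log2(TPM + 0.1) scale, which moved it by 0.86, and with scaling to the hepatocyte markers, C8b alone was lower. Of all liver genes 2.997%, 2.32% and 2.66% were called lower under these 3 settings in turn, against 7.80% with TMM. So few remaining lower calls do not set the members apart from all genes. The higher calls numbered 8, 8 and 9 of 43 under these same settings. Pros1 was gained in all 3, C3 with library totals and hepatocyte marker scaling, and Masp1 on the TPM scale and with hepatocyte marker scaling. There 39.5%, 46.5% and 44.3% of all liver genes were called higher, against 21.6% with TMM. The gained calls therefore do not set these members apart. Among all called liver genes the share that was higher went from 73.5% to 92.9% with library totals and 95.2% on the TPM scale. For high sitosterol that share went from 66.8% to 78.4% and 81.5%, and for ergosterol from 50.9% to 65.1% and 80.4%.

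**Figure D2:**
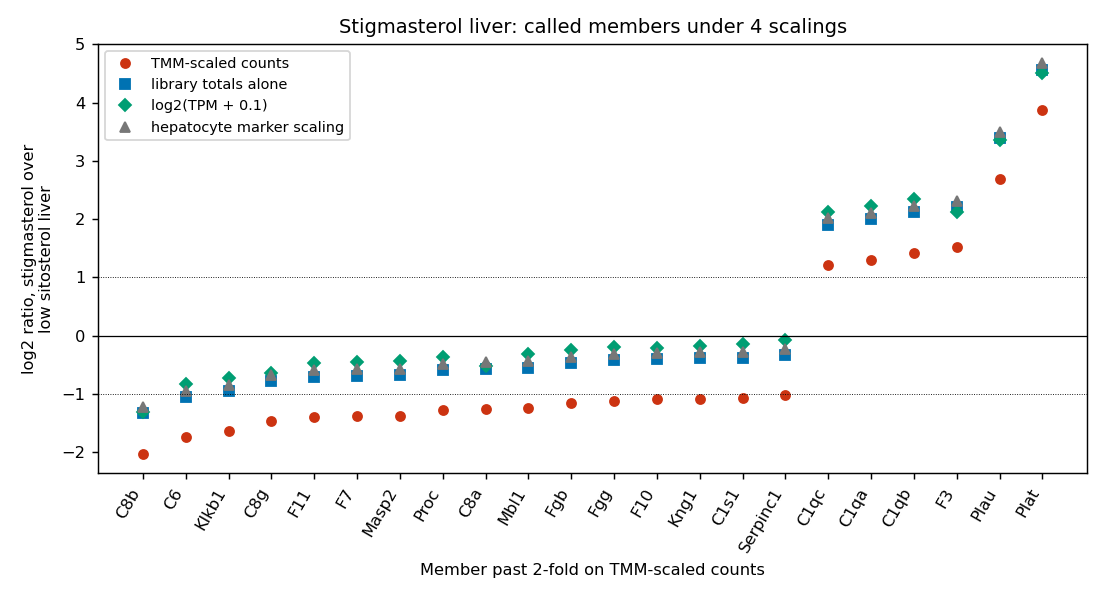
Log2 ratio of the 22 members called with TMM scaling in the stigmasterol liver against the low sitosterol liver under 4 scalings, with the 2-fold lines drawn. C8b lies at -2.03 with TMM, -1.34 with library totals, -1.31 on the TPM scale and -1.23 with hepatocyte marker scaling, below the 2-fold line each time, and Plat lies above it each time.

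Fibrinogen was among the most abundant products. Fga, the alpha chain, was at 4668, 3330, 4899 and 2437 scaled CPM in the livers, listed in the order low sitosterol, high sitosterol, ergosterol, stigmasterol, an order kept for every member below. Fgb, the beta chain, was at 5552, 4319, 4364 and 2472 scaled CPM. Fgg, the gamma chain, was at 5077, 3682, 4066 and 2340 scaled CPM. In scaled CPM all 3 chains were lowest on stigmasterol, with log2 ratios to low sitosterol of -0.94, -1.17 and -1.12. Fgb and Fgg thus passed 2-fold and Fga stayed just under it. On the TPM scale Fga was lowest on high sitosterol, at 1756, and its stigmasterol ratio was -0.03. In TPM Fgg was at 2826, 2473, 2985 and 2470, and the stigmasterol ratio was -0.19. The gamma chain made up between 41.8% and 46.0% of fibrinogen TPM in the 4 livers. F13b, the carrier subunit of the fibrin-crosslinking factor XIII, had a log2 ratio of -0.38 on stigmasterol and was not called.

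The 5 contact-system genes had a median stigmasterol ratio of -1.08. F11, the zymogen of factor XIa, was at 71.2, 90.9, 29.2 and 27.0 scaled CPM. Low and high sitosterol lay well above ergosterol and stigmasterol, with log2 ratios to low sitosterol of -1.29 (95% interval -1.38 to -1.19) and -1.40. On the TPM scale F11 was at 29.2, 45.1, 15.8 and 21.03, and neither ratio reached 2-fold there. Klkb1, plasma prekallikrein, which lies beside F11 on chromosome 8, was at 314, 228, 293 and 100 scaled CPM, and its ratio on stigmasterol was -1.65. Unlike F11 it was near its low sitosterol level on ergosterol, at -0.10. Kng1, high-molecular-weight kininogen, was at 2882, 3204, 2471 and 1361 scaled CPM, lowest on stigmasterol at -1.08. F12, which starts the contact pathway, was at 552, 617, 616 and 407 scaled CPM and was called in no comparison with low sitosterol.

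Of the extrinsic and common pathway, F7, which tissue factor binds, was at 94.96, 77.8, 87.2 and 36.4 scaled CPM, and its ratio on stigmasterol was -1.38. F10, the factor that both pathways activate, was at 494, 496, 443 and 231 scaled CPM, with a ratio of -1.10. Both were lowest on stigmasterol, and neither was called on another diet. Prothrombin (F2), F5, F8 and F9 were called on no diet against low sitosterol; their stigmasterol ratios ran from -0.83 for F9 to -0.06 for F8. F3, tissue factor, went the other way: it was counted 103, 121, 91 and 492 times, a level of 2.52, 2.61, 2.04 and 7.22 scaled CPM, with a stigmasterol ratio of 1.51 (interval 1.21 to 1.84).

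Among the clotting inhibitors, antithrombin (Serpinc1) was at 2636, 2385, 2331 and 1294 scaled CPM and its stigmasterol ratio was -1.03, just past 2-fold; in TPM it was the most abundant member in 3 of the livers, with 2858, 3122, 3294 and 2717. Proc, the zymogen of anticoagulant protein C, was at 640, 633, 554 and 263 scaled CPM, with a ratio of -1.28. Both inhibitors were lower on stigmasterol and were called on neither of the other diets. Pros1, the cofactor protein S, was at 43.1, 59.6, 53.0 and 74.5 scaled CPM. It was highest on stigmasterol, at 0.79, which did not pass 2-fold with TMM scaling. It was called higher there with library totals, on both TPM scales and with hepatocyte marker scaling, with 12.0 and 40.8 TPM on low sitosterol and stigmasterol. Heparin cofactor II (Serpind1) had ratios between -0.37 and 0.16.

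In fibrinolysis the zymogen and its activators parted. Plg, plasminogen, was at 2184, 2099, 2210 and 1149 scaled CPM, lowest on stigmasterol at -0.93, which was not called. Plat, tissue plasminogen activator, was counted 41, 40, 16 and 1010 times, a level of 1.00, 0.864, 0.359 and 14.8 scaled CPM. Plau, urokinase, was counted 49, 113, 35 and 532 times, a level of 1.20, 2.44, 0.786 and 7.80 scaled CPM. Both activators were highest on stigmasterol, Plat 14.6-fold (log2 3.87, interval 3.44 to 4.37) and Plau 6.46-fold above low sitosterol. Plau also passed 2-fold on high sitosterol, at 1.02 (interval 0.53 to 1.54), but was no longer called with a prior count of 5, on log2(TPM + 1) or with hepatocyte marker scaling. Plat was lower on ergosterol at -1.45, from 16 counts against 41, and -0.73 on the TPM scale. In the liver on low sitosterol the listed adrenal cortex genes had a median of 0.0880% of their adrenal TPM, from a source that was not tested. This median was 0.0038% on high sitosterol, 0.0042% on ergosterol and 0.011% on stigmasterol. A share of 0.0880% of the adrenal Plat and Plau levels equals 7.15% and 3.45% of their TPM in the low sitosterol liver. Serpinf2, the plasmin inhibitor alpha-2-antiplasmin, was at 665, 685, 798 and 539 scaled CPM and was not called.

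In complement the C1q chains were higher on 2 diets. C1qa, which encodes the A chain of C1q, was at 46.0, 146, 60.04 and 113 scaled CPM. C1qb, the B chain, was at 42.1, 119, 57.2 and 112 scaled CPM. C1qc, the C chain, was at 37.5, 115, 53.0 and 86.7 scaled CPM. The 3 chains, neighbours on chromosome 4, were ordered alike: low sitosterol lowest, then ergosterol, then stigmasterol, and high sitosterol highest in scaled CPM. In TPM the upper 2 changed places, C1qa being at 175 on high sitosterol and 213 on stigmasterol. On high sitosterol the folds were 3.17, 2.84 and 3.06, and on stigmasterol 2.47, 2.67 and 2.31, called under every alternative run; ergosterol gave ratios of 0.39, 0.44 and 0.50, not called. The chains kept their proportion, C1qa making between 37.2% and 41.1% of C1q TPM in all 6 libraries.

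Macrophage markers moved with C1q. Of 12 listed, 11 were higher and 1 lower on high sitosterol, 4 and 0 on ergosterol, and 7 and 2 on stigmasterol, with median log2 ratios of 1.66, 0.76 and 1.62. Clec4f, a Kupffer cell receptor, was among the lower ones on stigmasterol, at 79.5 against 24.1 scaled CPM in the low sitosterol and stigmasterol livers. Summed C1q over Mpeg1, a macrophage pore protein, was 1.74, 2.35, 1.88 and 1.89. Over Cd68, a lysosomal macrophage protein, it was 18.3, 10.8, 14.2 and 11.1, and over Csf1r, the macrophage growth factor receptor, 3.61, 4.76, 2.69 and 5.24. The order of the livers thus depended on the marker. Over Adgre1 it was 22.4, 24.7, 9.41 and 13.4, over Ctss 5.16, 4.79, 4.94 and 2.08, and over Lyz2 2.44, 2.42, 3.04 and 1.19. Whether macrophage number accounts for C1q was not tested.

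**Figure D3:**
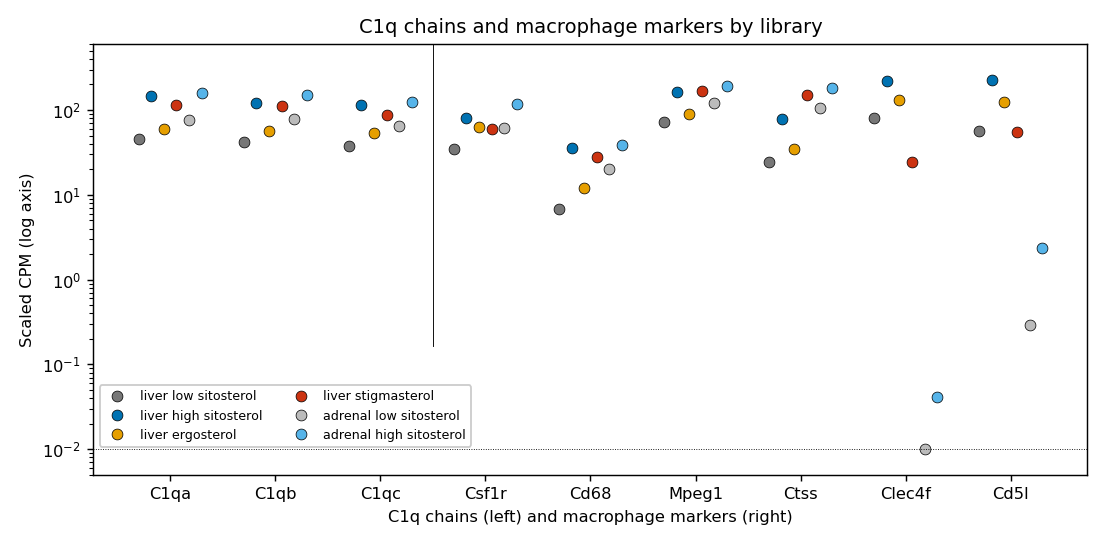
Scaled CPM of C1qa, C1qb and C1qc and of 6 macrophage markers in the 4 livers and 2 adrenals, on a log axis. In scaled CPM the C1q chains are highest on high sitosterol in both tissues, and Clec4f, at 0 counts in the low sitosterol adrenal, is drawn at 0.01 there.

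The 5 members listed under the membrane attack complex, the pore that ends the cascade, are not all of its genes, and 3 of them are C8 chains. They had the lowest median stigmasterol ratio of the 12 role groups, -1.47. C6 was at 393, 228, 163 and 117 scaled CPM, and its ratios were -0.79, -1.27 and -1.75. C8b, the beta chain of C8, was at 428, 275, 178 and 105 scaled CPM, and its ratios were -0.63, -1.26 and -2.03. In scaled CPM both genes showed the same order, low sitosterol highest and stigmasterol lowest. C8b kept its ergosterol and stigmasterol calls under every alternative run. C6 lost both calls on the TPM scale, at -0.88 and -0.83, and was lowest on ergosterol there. C8a, the alpha chain, was at 482, 481, 324 and 201 scaled CPM, C8g, the gamma chain, at 584, 426, 485 and 210, and both passed 2-fold on stigmasterol only, at -1.26 and -1.47. C8b made up 20.4%, 17.5%, 10.01% and 13.6% of the TPM of the 3 C8 genes. C9, which completes the pore, was at 413, 397, 303 and 271 scaled CPM and was not called.

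In the lectin pathway, Masp1, a protease that activates the lectin complexes, was at 12.4, 8.96, 33.0 and 15.3 scaled CPM, with an ergosterol ratio of 1.41 (interval 1.26 to 1.56). Ergosterol was the one diet called with TMM scaling, and its ratio was 1.78 on the TPM scale. In TPM Masp1 was at 4.07, 3.54, 14.2 and 9.47, and stigmasterol was also called on both TPM scales and with hepatocyte marker scaling. Masp1 overlaps Rtp4 on the other strand and the kit does not mark strand, so reads of the overlap cannot be assigned. Masp2 was at 245, 205, 215 and 94.1 scaled CPM, and Mbl1, a mannose-binding lectin, at 207, 148, 172 and 87.0; both were lower on stigmasterol, at -1.38 and -1.25. Mbl2 was at 324, 410, 396 and 202 scaled CPM, with a stigmasterol ratio of -0.68. C1s1, the classical-pathway protease, was at 435, 398, 375 and 206 scaled CPM and its stigmasterol ratio was -1.08.

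**Figure D4:**
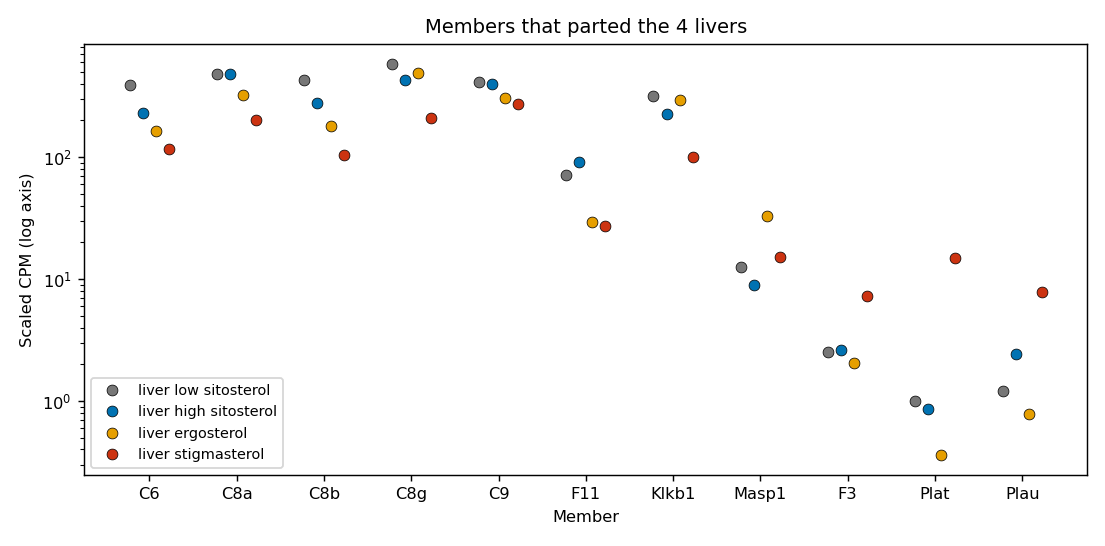
Level of 11 members in the 4 livers, in scaled CPM on a log axis, with 1 point for each library. C6 and C8b run down from low sitosterol to stigmasterol, Masp1 is highest on ergosterol at 33.0, and F3, Plat and Plau are highest on stigmasterol.

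C3, where all 3 routes meet, was at 4126, 4995, 5794 and 5231 scaled CPM, with ratios of 0.28, 0.49 and 0.34. It was not called with TMM scaling, but on stigmasterol it was called higher with library totals and with hepatocyte marker scaling. In TPM it was at 1528, 2504, 1888 and 2836. Factor B (Cfb), the alternative-pathway protease, had ratios of 0.03, 0.25 and -0.39. C2 and C4b, of the classical pathway, had stigmasterol ratios of -0.34 and -0.24; C4b is near-identical to C4a, which was not analysed here, so C4b counts may include it. The complement inhibitors Cfi and Serping1 had stigmasterol ratios of -0.51 and -0.87. In all, 20 members were called in no liver comparison with low sitosterol.

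Set directly against each other, the 3 sterol diets compare single libraries, and the sterol amounts behind them are not known to match. Stigmasterol differs from sitosterol by a double bond in the side chain, whereas ergosterol differs in ring and side chain. For stigmasterol against high sitosterol, 3 members were higher and 11 lower, where 16.4% of liver genes were called higher and 5.60% lower. Plat was 17.0-fold higher, F3 2.75-fold and Plau 3.19-fold, whereas F11 was 3.37-fold lower, the C1q ratios ran from -0.40 to -0.09, and none of these C1q ratios passed 2-fold. With library totals 1 member was lower, F11, where 2.59% of genes were. Ergosterol against high sitosterol had 1 member higher and 6 lower, where 6.18% of genes were called higher and 8.96% lower: Masp1 was 3.68-fold higher, and F11 (3.11-fold), Plat, Plau and the C1q chains were lower. On log2(TPM + 0.1) 3 of these 6 lower calls held, F11, Plau and C1qa, and C8a, C8b and C9 joined them; on log2(TPM + 1) F11 and C1qa held, and with hepatocyte marker scaling C1qb and C1qc were lost. Ergosterol against stigmasterol had 7 higher and 3 lower, where 7.13% and 19.4% of genes were called. F3, Plat and Plau were the lower ones, at log2 ratios of -1.81, -5.32 and -3.29, and 6 of the 7 higher calls were lost with library totals, Klkb1 keeping its call.

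Further genes of these pathways were looked at from lists. Of 30 listed other clotting genes 24 were analysed in liver, and 3 were higher and 2 lower on high sitosterol, 0 and 0 on ergosterol, and 5 and 3 on stigmasterol. Of 35 other complement genes 33 were matched by symbol and 29 analysed, with 8 and 0, 3 and 2, and 6 and 8. Serpine2, a serine protease inhibitor, was at 36.6, 3.001, 20.7 and 30.8 scaled CPM, 12.2-fold lower on high sitosterol than on low sitosterol. Cfd, factor D of the alternative pathway, was at 2.44, 2.61, 34.8 and 0.53 scaled CPM, 14.2-fold higher on ergosterol. Itgax, the alpha chain of a complement receptor of myeloid cells, was at 0.37, 3.20, 0.85 and 19.1 scaled CPM, and Susd4, a complement regulator, at 20.3, 13.1, 21.6 and 0.84, so on stigmasterol they were 50.6-fold higher and 24.03-fold lower.

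In the adrenal 24 of the 43 members passed the filter of 1 CPM, 10 of clotting, 2 of fibrinolysis and 12 of complement. Of the 43 members 26 were under 1% of their liver mean TPM. The listed hepatocyte markers had a median of 0.0401% of their liver level, with Pck1 highest at 29.4%. Other members were present below their liver level: C4b at 32.3% of its liver mean TPM, Serping1 at 27.8%, C1s1 at 25.4% and C3 at 19.3%. C6 was at 5.94%, Kng2 at 3.34% and Cfb at 2.33%. Mbl1 was at 0 counts in both adrenals. By contrast 10 members were higher in the adrenal than in the liver by mean TPM: F3, F8, Pros1, Plat, Plau, the 3 C1q chains, C2 and Masp1. Plat had the highest ratio of them, 1027% of its liver mean. How many of all genes were higher in the adrenal was not computed. The count of 10 therefore does not set these members apart.

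**Figure D5:**
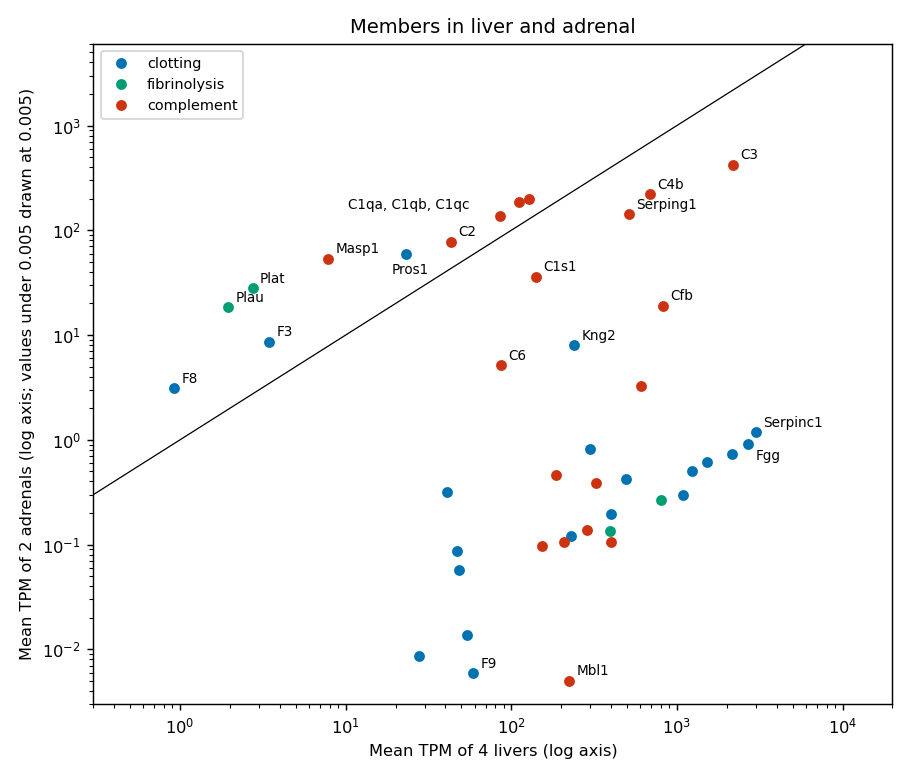
Mean TPM of each member in the 4 livers (x axis, log scale) and in the 2 adrenals (y axis, log scale, values under 0.005 drawn at 0.005), with the line of equal level. The 10 members named in the text lie above the line, and 26 lie under 1% of their liver level.

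High against low sitosterol in the adrenal gave 3 members higher and 1 lower, where 3.82% of the 14224 adrenal genes were called higher and 2.31% lower. C3 was at 2198 and 516 scaled CPM on low and high sitosterol, from 90774 and 24942 counts, a log2 ratio of -2.09. Adipocyte markers, a list added after the values were seen, moved with it: 7 of 8 were lower and their sum went from 2761 to 1056 scaled CPM, and its part in the C3 value was not tested. C1qa was at 76.2 and 157 scaled CPM, a ratio of 1.05, while C1qb and C1qc, at 0.93 and 0.95, stayed just under 2-fold. Macrophage markers were higher in 4 and lower in 1 of 11, with a median of 0.93. Cfb was at 13.9 and 32.5 scaled CPM, a ratio of 1.23, and C6 at 5.33 and 12.6, also 1.23. The Cfb ratio was 0.97 on the TPM scale. Plat, at 31.7 and 58.5 scaled CPM, had a ratio of 0.88 and was not called. Of the other members above the filter, Plau was at 21.5 and 32.8 scaled CPM, Masp1 at 80.8 and 108, C4b at 174 and 261, and Serping1 at 125 and 167, each higher on high sitosterol but within 2-fold. F3 was at 11.6 and 7.53 scaled CPM, F8 at 14.9 and 11.6, and C2 at 131 and 113, each lower but within 2-fold. Pros1 was at 112 and 119, C1s1 at 61.3 and 68.7 and Kng2 at 5.62 and 9.78 scaled CPM, also within 2-fold. The remaining 7, which include the 3 fibrinogen chains, were below 2 scaled CPM in both adrenals. All 4 calls fell in complement, whose 12 analysed genes had a median log2 ratio of 0.50, beside 0.00 for all adrenal genes. On log2(TPM + 0.1) these medians were 0.37 and -0.02. The 10 clotting genes had a median of -0.10 and the 2 fibrinolysis genes one of 0.74, with TMM scaling.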

How the data were processed

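Total RNA of 4 livers and 2 adrenals was sequenced from TruSeq RNA v2 libraries, per the labels' protocols, a kit that does not mark strand. The deposited values are estimated counts and, in a second table, TPM for each gene. The tools listed, per the submitters' processing notes, are HISAT2 2.0.5, kallisto 0.43.1 and Trimmomatic 0.33, with build mm10, given without role or order. Estimated counts were not whole for between 39.1% and 49.3% of genes and were rounded for intervals.

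Scaling factors were computed per tissue from all genes by TMM (edgeR 4.0.16, R 4.3.3), and DESeq2 1.42.0 size factors served as an alternative. A gene was analysed in a tissue where any of its libraries reached 1 CPM. Log2 ratios of the deposited counts used a prior count of 0.5, and the 95% intervals are exact conditional binomial (Clopper-Pearson) intervals that cover counting error only. No test across animals can be made with 1 library a group. Scripts were tested on simulated data.

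Values in each library are printed for members called in a liver comparison with low sitosterol at 10 or more scaled CPM, for the most abundant members of each system, and for adrenal members above 1 scaled CPM; F3 and Plau, below 10 scaled CPM in liver, and other genes named outside this rule were added after their values were seen. Members and lists were chosen with earlier results of these data known. Promoter windows come from RefSeq, and 12 members had none: C2, Plat, Cfb, Serping1, Plg, Cfi, C1qa, C4b, Kng1, Masp1, Plau and Proc. Gene positions come from GENCODE release M21, in which 16 members overlap another gene. Kng1 and Kng2, and C1s1 and its copy C1s2, share sequence, so their counts are uncertain. One gene that the naming rule selects from the other clotting genes is not reported here.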

Additional observations from a re-analysis of the deposited data

Results flagged for a closer look

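The ratios of C3 and C6 for high against low sitosterol had opposite signs in the 2 tissues, and in the liver neither was called. The C3 log2 ratio was -2.09 in the adrenal and 0.28 in the liver. The C6 log2 ratio was 1.23 in the adrenal and -0.79 in the liver. Each value compares 1 library with 1 library, and the difference between tissues was not tested.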

How the results depend on the processing

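No paired analysis was possible because each group has 1 library and the labels carry no replicate numbers, and for the same reason no library could be left out within a group. No ratio of a called member changed sign under any alternative. This says little, because a call needs a log2 ratio of at least 1 in size. No alternative moved the median of all genes by more than 0.88. The scaling to hepatocyte markers was chosen after seeing the data. Percentages in brackets below are the shares of all genes with the same call. Against low sitosterol, lower members on stigmasterol numbered 16 (7.80%), but 2 with library totals (2.997%). They became 1 on log2(TPM + 0.1) (2.32%), on log2(TPM + 1) (1.75%) and with hepatocyte marker scaling (2.66%). Lower members on ergosterol numbered 4, but 1 on both TPM scales (2.95% and 1.41%). With a 1.5-fold threshold 2 members were lower on high sitosterol in place of 0 (9.19%). For stigmasterol against high sitosterol, 11 lower became 1 with library totals (2.59%) and 3 on both TPM scales (2.17% and 1.44%). They became 24 at 1.5-fold (12.8%) and 0 with hepatocyte marker scaling (1.67%). The 3 higher became 5 on both TPM scales (32.7% and 19.2%) and with hepatocyte marker scaling (48.5%). For ergosterol against high sitosterol, 1 higher became 2 at 1.5-fold (15.7%) and with hepatocyte marker scaling (9.37%). For ergosterol against stigmasterol, 7 higher became 1 with library totals (3.18%) and on log2(TPM + 0.1) (3.12%). They became 0 on log2(TPM + 1) (2.06%) and with hepatocyte marker scaling (2.39%), and 27 at 1.5-fold (15.7%). The 3 lower of this comparison became 7 with library totals (30.0%) and with hepatocyte marker scaling (35.6%). They became 6 on both TPM scales (28.6% and 18.2%) and at 1.5-fold (26.7%). In the adrenal, 1 lower became 3 without the low-count filter (1.96%) and at 1.5-fold (7.16%), and 3 higher became 9 at 1.5-fold (10.2%). The other 120 alternative counts stayed within 1.5 times, which does not say that the same members were called. A count of 0 allows up to 3 counts, or at most 0.0733 scaled CPM in any library.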

Other observations

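Counts per TPM, which follow the length of the transcripts counted, were taken relative to their median over all analysed genes in each liver. So centred, they moved by 0.5 or more on the log2 scale between a liver and the low sitosterol liver for 4 of 43 members, against 1459 of 13212 genes. C4b moved by 1.02 on ergosterol and 0.79 on stigmasterol, and its uncentred ergosterol ratio was 0.46 in scaled CPM and -0.19 in TPM. C9 moved by 0.81 and 0.65 on the same diets. C3 moved by 0.56 and Cfb by 0.51 on ergosterol, where both pass the limit of 0.5 with this centring.

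Other cell-type lists differed in the stigmasterol liver too. Cholangiocyte markers were higher in 8 of 9 against low sitosterol, with a median log2 ratio of 2.81, and stellate and matrix genes in 7 of 10, with a median of 2.18. Endothelial markers were higher in 0 and lower in 1 of 10, with a median of 0.12. Of 16 acute-phase genes, 4 were higher and 4 lower there, with a median of 0.20, and on high sitosterol 5 were higher and 1 lower, with a median of 0.81.

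A list of male-biased and female-biased liver genes moved in the same livers. The list joins genes of both biases, so its sum and its counts do not show them apart. The summed level was 4638, 1696, 3256 and 668 scaled CPM on low sitosterol, high sitosterol, ergosterol and stigmasterol in turn. Of 11 analysed, 3 were higher and 8 lower on both high sitosterol and stigmasterol, and 1 was higher and 3 lower on ergosterol. Hsd3b5, a male-biased hydroxysteroid dehydrogenase, was 408-fold lower on stigmasterol, and Sult1e1, oestrogen sulfotransferase, was counted 2 times on low sitosterol and 1438 times on high sitosterol. The part of these genes in the member values was not tested.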
